A study of Mus musculus with 8 samples.

Results

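The integrated stress response genes described here are 10, taken by name with earlier results of these data known: Atf4, Ddit3, Trib3, Phgdh, Psat1, Asns, Slc7a11, Chac1, Hspa5 and Xbp1. Each was found under its symbol among the 47732 entries of the expression table, and all 10 were among the 15327 genes that passed the filter on low counts. RNA-seq was made from cultured bone marrow MSCs (mesenchymal stem cells) of C57BL/6 mice, with 2 libraries labelled WT, which the study describes as Mettl3fl/fl, and 2 labelled cKO, of Prx1-Cre;Mettl3fl/fl mice. Mettl3 encodes the enzyme that writes N6-methyladenosine (m6A) on mRNA. Both groups carry the floxed allele, and in cKO the Cre removes its exons 2 and 3 in cells of the limb bud mesenchyme and what descends from it, so other cells of the culture keep the gene. All cultures had spent 2 days in osteogenic medium, which held dexamethasone (100 nM), β-glycerophosphate (5 mM) and ascorbic acid (50 μg/ml). m6A was mapped in wild-type MSCs of the same strain and medium, as 2 immunoprecipitates and 2 inputs that yielded 1 peak list. The age of the animals is not given in the sources used here.

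In the integrated stress response, kinases that sense unfolded protein in the endoplasmic reticulum (ER), missing amino acids, viral RNA or lack of heme phosphorylate the translation factor eIF2. Most protein synthesis then slows, while the mRNA of the transcription factor ATF4 is translated better, so that much of the response is set by translation and not by the amount of Atf4 mRNA. ATF4 switches on genes for amino acid synthesis, import and tRNA charging, and it partners with CHOP, the product of Ddit3. The unfolded protein response of the ER shares its PERK arm with this pathway and has other arms that run through ATF6 and through XBP1. Osteoblasts secrete much collagen, which is rich in glycine and proline, and ATF4 is known for its role in their differentiation.

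Transcripts of 6 of the 10 genes were lower in cKO than in WT libraries, none was higher, and 4 did not pass the test. Phgdh and Psat1, enzymes of serine synthesis, and Asns, the enzyme of asparagine synthesis, were at 0.454, 0.445 and 0.509 of their WT level. Chac1, which breaks down glutathione, was at 0.479. Atf4 itself and Hspa5, the main ER chaperone, were lower by a smaller margin, at 0.786 and 0.778. Ddit3, Trib3, Slc7a11 and Xbp1 were not separated from their WT level by the test. Across all genes tested, 30.5% passed an adjusted p of 0.05 (the quasi-likelihood test of edgeR, adjusted over all genes by Benjamini-Hochberg), 16.8% as lower and 13.7% as higher in cKO, so the 6 of 10 stand beside a background of 16.8% for that direction. The median log2 fold change of the 10 genes was -0.54, against -0.0038 for all genes. Since the genes were chosen with earlier results of these data known, these comparisons describe the genes and do not test them as a set. Among all genes 2577 were lower and 2100 higher. This split turned to 1442 lower and 1779 higher when limma was run on log2(TPM + 0.1), under which 4 of the 10 genes were lower and none higher. Under that fit the median log2 fold change of all genes was 0.0965, so its values sit on a scale shifted upward.

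A library held 23948200 to 34069223 counts on named genes. The labels do not say that libraries of a group came from separate animals, so p-values measure the spread between these samples, which may be technical. That spread was unequal: the WT libraries differed by a biological coefficient of variation of 12.3% and the cKO libraries by 1.9%. With a WT library left out, the spread therefore comes from the close cKO pair alone and 7934 to 8750 genes pass, so such passes are no support for a gene and its value alone is given below. With a cKO library left out, the spread comes from the WT pair. Mettl3 stood at 17.6 and 16.9 CPM (library-scaled counts, defined below) in WT and 17.5 and 16.3 in cKO (log2 fold change -0.03, SE 0.09, adjusted p = 0.824). These counts cover the whole gene and do not show the deletion, so the groups rest on their labels. Markers of MSCs were present except Lepr, at 0.596 to 1.24 CPM, and 7 of 12 were lower and 4 higher in cKO. Their summed levels were 1731 to 1846 TPM in WT and 1402 to 1405 in cKO. The largest falls in that sum were of the collagen genes Col1a1 (mean 433 TPM in WT, 302 in cKO) and Col1a2 (537 and 280). The 4 higher were Thy1 (2.575 and 67.6), Prrx1 (40.1 and 87.4), Pdgfrb (28.3 and 49.3) and Pdgfra (29.6 and 37.6). Macrophage transcripts were abundant, with all 10 markers above 0: their sum was 22573 to 27470 TPM in WT and 31901 to 32167 in cKO, and 3 of 10 were higher and none lower in cKO. Most of that sum was Lyz2, which did not pass the test (adjusted p = 0.342). Without Lyz2 the sum was 7353 to 8155 TPM in WT and 10335 to 10458 in cKO. Adipocyte markers summed to 202 to 223 TPM in WT and 388 to 399 in cKO, with 5 of 8 higher and 1 lower. Sums for endothelial cells were 1.23 to 1.35 TPM in WT against 7.94 to 9.36 in cKO. Of the 3 endothelial markers tested, Kdr and Emcn were higher, and Cdh5 did not pass (log2 fold change -1.16). Sums for neutrophils were 18.3 to 20.8 against 3.87 to 5.92 TPM (2 of 6 markers at 0 throughout). In WT nearly all of that was S100a8 (17.2 and 18.7 TPM), which was lower in cKO, and the other marker tested, Camp, did not pass. Erythroid sums were at most 0.5 TPM in any library (1 of 6 at 0 throughout). The part of these other cells in the results below was not tested, and in bulk RNA fewer cells of a type cannot be told apart from less RNA per cell.

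CPM stands for a gene's counts as a rate of its library's TMM-scaled total, so it compares libraries. TPM is also scaled to transcript length, so it compares genes. Positions of genes are those of the expression table (GRCm38).

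**Figure D1:**
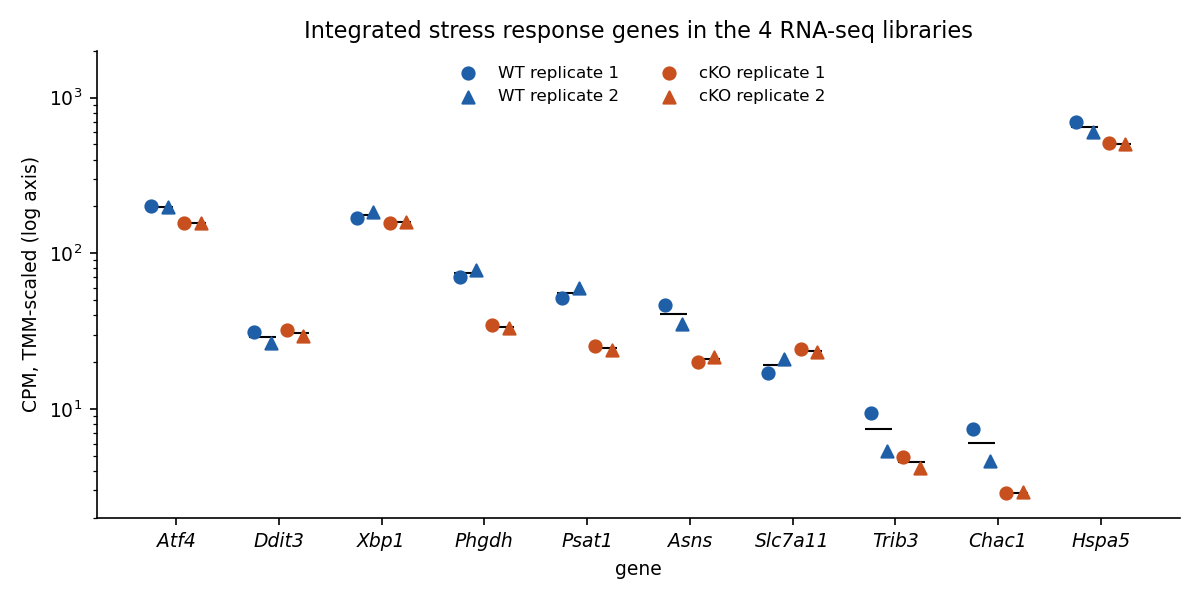
Level of each integrated stress response gene in CPM (log axis) in the WT libraries (blue) and the cKO libraries (orange); circles are replicate 1, triangles replicate 2, and short lines the means of 2 libraries. Phgdh, Psat1 and Asns show the clearest gap between groups, Atf4 a small gap with almost no spread, and Trib3 and Chac1 a wide spread between the WT libraries.

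Among the regulators, Atf4 (ENSMUSG00000042406, chr15:80255184-80257540, plus strand) encodes the central transcription factor of the pathway. Its level was 199.9 and 199.5 CPM in the WT libraries and 156.8 and 157.0 in the cKO libraries. The groups did not overlap, and the libraries within each group were closer to one another than those of almost any other gene: only 0.947% of 13302 genes had closer WT libraries, and 2.18% had closer cKO libraries. The log2 fold change was -0.35 (95% interval -0.48 to -0.21, SE 0.06, adjusted p = 0.00567), which is the smallest fall among the 6 genes that fell. With either cKO library left out the log2 fold change stayed between -0.35 and -0.34, but the call was lost (adjusted p = 0.141 and 0.143), the single cKO library being assumed to vary as the WT libraries do.

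Ddit3 (ENSMUSG00000025408, chr10:127290774-127296288, plus strand) encodes CHOP, a transcription factor best known for its part in cell death under lasting ER stress. It was measured at 31.2 and 26.7 CPM in WT and at 32.1 and 29.5 CPM in cKO. The groups overlapped, and the log2 fold change was 0.09 (95% interval -0.16 to 0.33, adjusted p = 0.575), with an interval that covers the spread between these libraries only. It was 0.21 without WT replicate 1 and -0.03 without WT replicate 2, so its sign turned on the WT library used. The last 68 bases of Ddit3 lie over the end of Mars, the methionyl-tRNA synthetase gene on the opposite strand, and the sources used here do not say whether reads were counted by strand. Mars was lower in cKO (67.1 ± 4.58 CPM in WT and 56.2 ± 3.03 in cKO, SD, n = 2 each; log2 fold change -0.26, adjusted p = 0.0496), so the Ddit3 value is uncertain by whatever reads the overlap shares. Another entry on that strand, Gm4189, lies over 15 bases of Ddit3 and held 10 counts in the 4 libraries.

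Trib3 (ENSMUSG00000032715, chr2:152337422-152344032, minus strand) encodes a pseudokinase that is induced by ATF4 and CHOP and holds ATF4 in check. Its 2 WT libraries read 9.49 and 5.34 CPM, and its cKO libraries 4.91 and 4.20. All cKO values lay below all WT values, but the gap between the WT libraries, a ratio of 1.78, was wider than the gap between the groups' nearest values, and 97.5% of genes had closer WT libraries. The log2 fold change of -0.72 (95% interval -1.39 to -0.04) had an adjusted p of 0.104. It moved to -0.23 without WT replicate 1 and to -1.07 without WT replicate 2, so its size turned on the WT library used. It passed with no filter on low counts (adjusted p = 0.000257), but its value was still -0.72, so the error estimate changed and not the fold change. It also passed with the replicate number as a block (-0.66, adjusted p = 0.0286), although the numbers were not found to pair the libraries.

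Of the enzymes that make amino acids, Phgdh (ENSMUSG00000053398, chr3:98313170-98339990, minus strand) encodes phosphoglycerate dehydrogenase, which draws 3-phosphoglycerate from glycolysis into serine synthesis. It stood at 70.5 and 78.5 CPM in WT and at 34.4 and 33.2 CPM in cKO. The lowest WT value was above both cKO values by far more than either pair differed. Phgdh thus had a log2 fold change of -1.14 (95% interval -1.33 to -0.95, SE 0.08, adjusted p = 0.000204), the smallest adjusted p of the 10 genes.

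Psat1 (ENSMUSG00000024640, chr19:15904678-15947337, minus strand) encodes the aminotransferase that takes the next step of the same route. Its levels were 51.4 and 60.1 CPM in WT and 25.5 and 24.1 CPM in cKO. As for Phgdh, the groups were far apart and WT replicate 2 was the higher WT library. For Psat1 the log2 fold change was -1.17 (95% interval -1.40 to -0.93, SE 0.10, adjusted p = 0.000439), the largest fall of the 10 genes. A pseudogene, Gm3329, lies over 556 bases of Psat1 on the opposite strand and held 0 counts in the 4 libraries.

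Asns (ENSMUSG00000029752, chr6:7675169-7693254, minus strand) encodes asparagine synthetase, a standard readout of amino acid shortage. It was at 46.5 and 35.4 CPM in WT and at 19.98 and 21.7 CPM in cKO. Here WT replicate 1 was the higher WT library, and the groups did not overlap. For Asns the log2 fold change was -0.97 (95% interval -1.31 to -0.64, SE 0.14, adjusted p = 0.00365). Phgdh, Psat1 and Asns, like Atf4, passed the test in each alternative that kept all 4 libraries apart. Over all 11 alternatives the log2 fold changes of Phgdh, Psat1 and Asns were -1.21 to -0.997, -1.27 to -0.99 and -1.15 to -0.75. Where a WT library was left out, only these values are given, for the reason stated above. Without either cKO library Phgdh, Psat1 and Asns kept the call, the single cKO library being assumed to vary as the WT libraries do.

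A pair of genes act on cystine and glutathione. Slc7a11 (ENSMUSG00000027737, chr3:49892526-50443614, minus strand) encodes the transporter xCT, which brings in cystine for glutathione synthesis and is under the control of both ATF4 and the antioxidant factor NRF2. Its level was 17.2 and 21.1 CPM in WT and 24.3 and 23.1 CPM in cKO. It is the 1 gene of the 10 whose cKO libraries both lay above both WT libraries, but the log2 fold change of 0.31 (95% interval 0.03 to 0.60) did not pass the test (adjusted p = 0.091). It was 0.18 without WT replicate 1 and 0.46 without WT replicate 2. It passed with no filter on low counts (0.32, adjusted p = 0.0217), where, as for Trib3, the value hardly moved and the error estimate changed. The entry spans 551089 bases with 13922 bases of exon, the longest of the 10, and includes 5 other entries with at most 9.73 counts each over the 4 libraries.

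Chac1 (ENSMUSG00000027313, chr2:119351229-119354381, plus strand) encodes a cyclotransferase that cleaves glutathione in the cytosol. Its level fell from 7.45 and 4.63 CPM in WT to 2.89 and 2.92 CPM in cKO. The groups did not overlap, while the WT libraries differed by a ratio of 1.61, wider than for 95.9% of genes, and the cKO libraries hardly differed. The log2 fold change was -1.06 (95% interval -1.68 to -0.44, SE 0.26, adjusted p = 0.0242). It ranged from -1.36 without WT replicate 2 to -0.67 without WT replicate 1, and the call was lost without either cKO library (adjusted p = 0.0814 and 0.082) and in limma on log2(TPM + 0.1) (adjusted p = 0.0755).

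Of the ER genes, Hspa5 (ENSMUSG00000026864, chr2:34771970-34777547, plus strand) encodes BiP, the ER chaperone that holds the stress sensors inactive until unfolded protein draws it away. It was at 697 and 602 CPM in WT and at 508 and 503 CPM in cKO. The groups did not overlap, and the WT libraries were about as far apart as the lower of them was from cKO. The log2 fold change was -0.36 (95% interval -0.56 to -0.17, SE 0.08, adjusted p = 0.0186). The call was lost without either cKO library (adjusted p = 0.17 and 0.183) and in limma on log2(TPM + 0.1) (-0.27, adjusted p = 0.0663).

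Xbp1 (ENSMUSG00000020484, chr11:5520659-5525893, plus strand) encodes the transcription factor whose mRNA is cut and rejoined by the ER sensor IRE1, the product of Ern1. It was measured at 169 and 185 CPM in WT and at 157 and 159 CPM in cKO. Both cKO values lay below both WT values, but the log2 fold change of -0.16 (95% interval -0.32 to 0.00) did not pass the test (adjusted p = 0.125). It was -0.22 without WT replicate 1 and -0.09 without WT replicate 2. The table gives 1 value per gene, so the spliced and unspliced forms cannot be told apart in it.

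**Figure D2:**
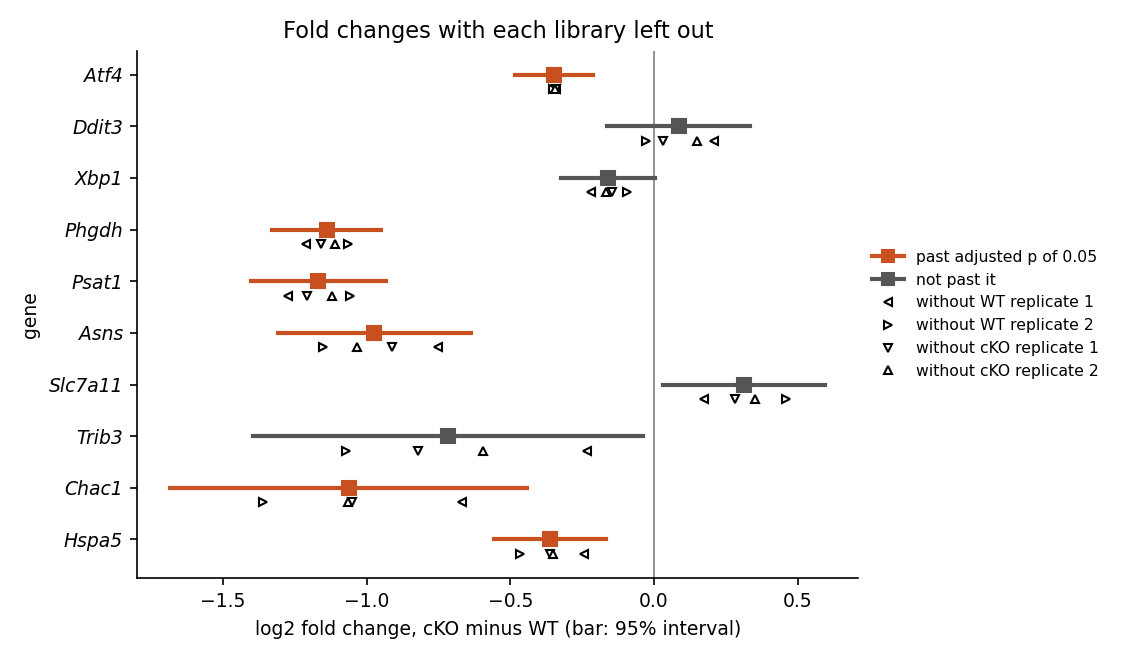
Log2 fold change, cKO minus WT, of each gene with its 95% interval (squares and bars; orange where the adjusted p was under 0.05), and the value with each library left out in turn (open triangles). Phgdh, Psat1 and Asns stay at or below -0.75 with any library left out, the Atf4 values lie on top of each other, and Trib3 moves from -1.07 to -0.23 with the choice of WT library.

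Of the 10 genes, 9 had WT and cKO libraries that did not overlap, 8 as lower and 1 as higher in cKO, beside 68.9% of all genes tested without overlap and 35.0% without overlap and lower. The WT libraries did not move the genes as a block: 6 were higher in WT replicate 1 and 4 in WT replicate 2. Trib3, Chac1, Asns, Ddit3, Hspa5 and, by a ratio of 1.002, Atf4 were the former, and Slc7a11, Psat1, Phgdh and Xbp1 the latter. The cKO libraries differed by less than 15% in 9 of the 10, the exception being Trib3.

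On the TPM scale, which allows levels of different genes to be set side by side, the WT means ran from 342 for Hspa5 through 176 for Atf4, 141 for Xbp1, 63.3 for Ddit3, 60.3 for Phgdh, 33.4 for Asns and 31.0 for Psat1 to 5.70 for Chac1, 5.68 for Trib3 and 2.85 for Slc7a11. Ddit3 (69.0 and 57.6 TPM) and Phgdh (56.6 and 63.9) overlapped, as did Asns (37.2 and 29.6) and Psat1 (29.0 and 33.1), and Chac1 (7.11 and 4.28) and Trib3 (7.03 and 4.32). The other neighbours in that order did not overlap. In cKO the first 7 genes kept this order, and Slc7a11, at a mean of 3.73 TPM, stood above Trib3 at 3.57 and Chac1 at 2.92, with overlapping libraries for Slc7a11 and Trib3. Chac1, Trib3 and Slc7a11 were thus the low end in both groups, and of the 10 genes Chac1 and Trib3 also had the fewest reads, while the reads of Slc7a11 are spread over a longer model.

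The other genes, called pathway genes here, were taken from 7 lists with 110 genes, of which 108 were tested (Fgf21 and Derl3 were not). The 108 include 25 ER genes of the ATF6 and XBP1 arms and 12 NRF2 targets, which belong to linked responses and of which 14 and 6 were lower. Of all 108, 51 were lower in cKO (47.2%, beside 16.8% of all genes), 5 higher (4.63%, beside 13.7%) and 52 passed in neither direction. In limma on log2(TPM + 0.1) the numbers were 28 lower and 9 higher. These lists too were chosen with earlier results of these data known, so the shares are a description.

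**Figure D3:**
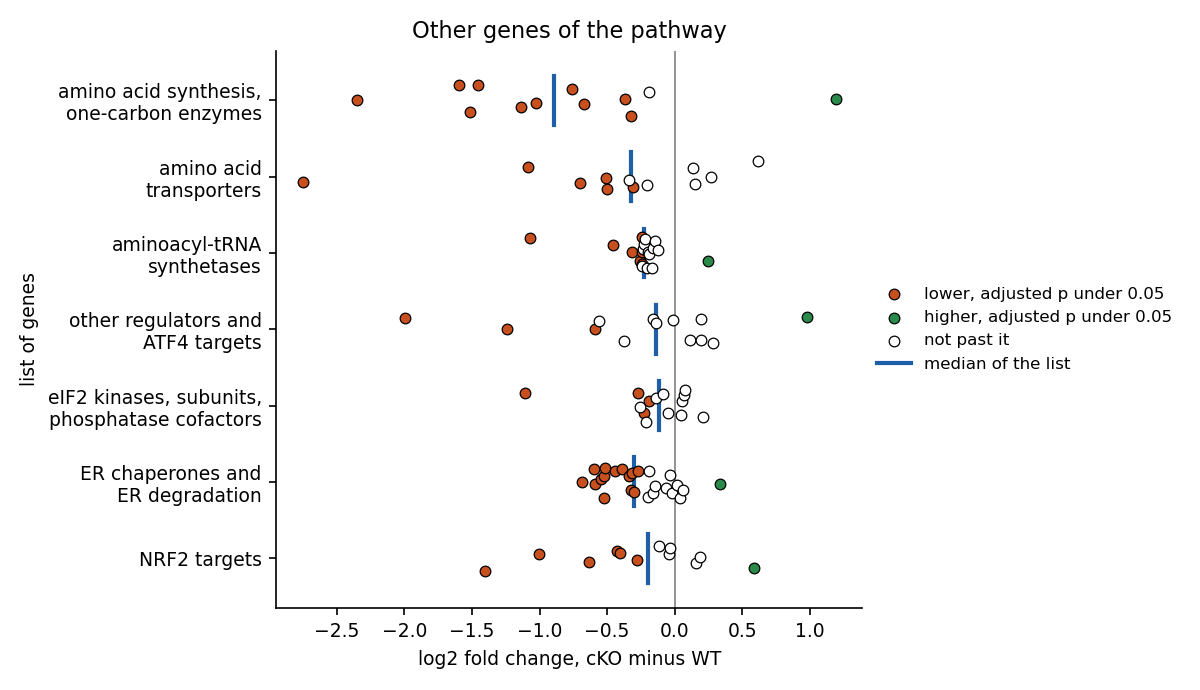
Log2 fold change, cKO minus WT, of the 108 other genes tested from the pathway and linked responses, 1 point per gene in 7 lists (orange, lower; green, higher; white, not past an adjusted p of 0.05), with the median of each list as a blue line. The list of amino acid synthesis and one-carbon enzymes lies farthest to the left, with a median of -0.89 and 10 of 12 genes lower.

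Of the 12 other enzymes of amino acid synthesis and one-carbon metabolism, 10 were lower, 1 was higher and 1 did not pass, with a median log2 fold change of -0.89. Cth, which makes cysteine from cystathionine, had the largest fall (5.68 and 4.46 CPM in WT, 1.28 and 0.753 in cKO; log2 fold change -2.35, adjusted p = 0.00228). Pycr1, which completes proline synthesis in mitochondria, fell by 1.60 in log2 units (adjusted p = 0.000986), and Aldh1l2, a mitochondrial folate enzyme, by 1.52 (adjusted p = 0.00012). Shmt2, which turns serine to glycine in mitochondria, fell by 0.67 (adjusted p = 0.00109), and Got1, the cytosolic aspartate aminotransferase, by 0.32 (adjusted p = 0.0181). The Got1 call was lost in limma on log2(TPM + 0.1) (-0.16, adjusted p = 0.148) and without either cKO library. Cbs, which makes the cystathionine that Cth uses, went the other way (1.57 and 1.73 CPM in WT, 3.88 and 3.67 in cKO; log2 fold change 1.19, adjusted p = 0.00737), though it did not pass in limma on log2(TPM + 0.1) (0.81, adjusted p = 0.0803) or without cKO replicate 1 (adjusted p = 0.0599). Psph, the last enzyme of serine synthesis after Phgdh and Psat1, was also lower but less so (15.1 and 15.2 CPM in WT, 12.2 and 11.3 in cKO; log2 fold change -0.37, adjusted p = 0.0337). Psph was named after its values were seen.

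Of 12 amino acid transporters other than Slc7a11, 6 were lower and none higher (median -0.32). The arginine carrier Slc7a3 was barely expressed and fell from 2.22 and 1.45 CPM to 0.371 and 0.188 (log2 fold change -2.75, adjusted p = 0.00629). Slc7a5, the carrier of large neutral amino acids, fell from 40.6 and 29.9 to 17.2 and 16.1 CPM (-1.09, adjusted p = 0.00341). Slc3a2, the heavy chain that both Slc7a5 and Slc7a11 need at the cell surface, fell from 346 and 328 to 237 and 238 CPM (-0.51, adjusted p = 0.00176), and Slc7a1 by 0.70 in log2 units (adjusted p = 0.0307). The Slc7a1 value was -0.37 without WT replicate 1 and -0.95 without WT replicate 2, and its call was lost in limma on log2(TPM + 0.1) (adjusted p = 0.147) and without cKO replicate 1 (adjusted p = 0.0994). Slc38a2, a glutamine carrier, stood at 353 and 489 CPM in WT and 336 and 330 in cKO and did not pass (adjusted p = 0.125).

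Of 20 cytosolic aminoacyl-tRNA synthetases, 8 were lower and 1 higher (median -0.23). A log2 fold change below 0 was found in 19 of the 20, beside 7748 of all 15327 genes. That count depends on the scale. In mean TPM, Qars (122.45 in WT, 129.55 in cKO) and Sars (154.82 and 154.99) were not lower, nor was Wars, while the rest were. Eprs, which charges tRNA with glutamate and proline, stood apart from the rest with 286 and 290 CPM in WT and 136 and 138 in cKO (-1.07, adjusted p = 7.34e-05). Cars (-0.45, adjusted p = 0.00727) and Yars (-0.32, adjusted p = 0.0236) followed, and Wars was the one called higher (0.24, adjusted p = 0.0447). The Wars call was lost with the replicate number as a block (adjusted p = 0.0524) and in DESeq2 (adjusted p = 0.129), and the Yars call in limma on log2(TPM + 0.1) (adjusted p = 0.212). The calls of Cars, Yars and Wars were lost without either cKO library. Nars, the most abundant of them, did not pass (-0.17, adjusted p = 0.0836).

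Of the 14 eIF2 kinases, eIF2 and eIF2B subunits and phosphatase cofactors, 4 were lower and none higher (median -0.11). Ppp1r15a, which encodes GADD34, the stress-induced cofactor that directs the phosphatase back to eIF2, fell from 58.6 and 66.3 to 28.6 and 29.4 CPM (log2 fold change -1.11, adjusted p = 0.000304). Its constant counterpart Ppp1r15b stood at 121 and 124 CPM in WT and 120 and 117 in cKO (-0.05, adjusted p = 0.559). The subunit genes Eif2s1 (-0.27, adjusted p = 0.0264) and Eif2b5 (-0.23, adjusted p = 0.0431) passed narrowly, and Eif2s3x (-0.13, adjusted p = 0.23) did not pass. The calls of Eif2s1 and Eif2b5 were lost in DESeq2 (adjusted p = 0.0503 and 0.191), in limma on log2(TPM + 0.1) (adjusted p = 0.146 and 0.266) and without either cKO library, and that of Eif2b5 also with the block (adjusted p = 0.0606) and with no filter on low counts (adjusted p = 0.0545). None of the 4 kinase genes Eif2ak1, Eif2ak2, Eif2ak3 and Eif2ak4, named after their values were seen, passed, with log2 fold changes of 0.06 to 0.21.

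Of 13 other transcription factors and regulatory or secreted targets tested, 3 were lower, 1 was higher and 9 did not pass (median -0.14). Stc2, a secreted glycoprotein, fell from 2.66 and 3.18 to 0.660 and 0.784 CPM (-1.997, adjusted p = 0.00307). Vldlr, a lipoprotein receptor, fell by 1.24 in log2 units (adjusted p = 0.00603) and Ddit4, an inhibitor of mTORC1, by 0.59 (adjusted p = 0.000755). Bbc3, which encodes the pro-apoptotic protein PUMA, rose from 26.3 and 19.7 to 44.0 and 46.9 CPM (0.98, adjusted p = 0.00333). Cdkn1a, the most abundant of the list, did not pass (-0.16, adjusted p = 0.118). The transcription factor genes Atf3, Atf5, Cebpb and Cebpg, named after their values were seen, did not pass either, with log2 fold changes of -0.37, -0.01, 0.29 and 0.11.

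Of 25 ER chaperone and ER-associated degradation genes tested beside Hspa5 and Xbp1, 14 were lower and 1 was higher (median -0.30). P4hb, a protein disulfide isomerase that is also a subunit of the collagen prolyl hydroxylase, fell from 869 and 897 to 550.03 and 549.8 CPM (-0.68, adjusted p = 0.000408). Pdia6, another disulfide isomerase, fell by 0.59 in log2 units (adjusted p = 0.00361) and Calr, the lectin chaperone calreticulin, by 0.53 (adjusted p = 0.00225). Ern1 fell by 0.59 (adjusted p = 0.0099), but in limma on log2(TPM + 0.1) its log2 fold change was -0.30 and the call was lost (adjusted p = 0.267), as it was without cKO replicate 2 (adjusted p = 0.0574). Edem1, which sends misfolded glycoproteins to degradation, rose from 243 and 231 to 300.2 and 299 CPM (0.34, adjusted p = 0.00806), a call that was lost without either cKO library.

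Of 12 NRF2 targets, which share Slc7a11's second regulator, 6 were lower and 1 was higher (median -0.20). Nqo1, a quinone reductase, fell by 1.40 in log2 units (adjusted p = 0.000425), and Gclc, the rate-limiting enzyme of glutathione synthesis, from 328 and 325 to 164 and 161 CPM (-1.01, adjusted p = 9.06e-05). Srxn1 (-0.63, adjusted p = 0.00169) and Hmox1 (-0.43, adjusted p = 0.00346) were lower, the Hmox1 call being lost without either cKO library, and Osgin1 rose (0.58, adjusted p = 0.0114, and 0.0772 without cKO replicate 1).

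The promoters of the 10 genes, taken from RefSeq (GRCm38.p6) as 250 bases before to 50 after each start, were searched on both strands for 3 elements. The first was the core of the C/EBP-ATF response element (CARE), TGATGNAA, to which ATF4 binds with a C/EBP partner. The others were the ER stress response element (ERSE), CCAAT, 9 bases and CCACG, and the UPRE-like motif TGACGTG. CARE was present in 4 of the 10 genes, beside 4.51% of 27025 genes with a promoter in the table. The 5 sites are shown with the element in capitals, since they are a feature of these genes that the expression values did not use. They lie at chr6:7693214-7693243 (minus strand) for Asns, chr2:152344028-152344057 (plus strand) for Trib3, chr2:119351038-119351067 (minus strand) for Chac1, and chr3:50443661-50443690 (minus strand) and chr3:50443642-50443671 (plus strand) for Slc7a11, whose windows share bases while their elements lie on opposite strands.
Asns: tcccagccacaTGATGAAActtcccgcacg
Trib3: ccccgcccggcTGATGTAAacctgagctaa
Chac1: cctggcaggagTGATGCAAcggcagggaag
Slc7a11, first site: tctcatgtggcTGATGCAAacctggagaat
Slc7a11, second site: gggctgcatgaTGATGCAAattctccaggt

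Of these 4 genes, Asns and Chac1 fell in cKO, Trib3 did not pass the test, and Slc7a11 had a log2 fold change above 0. Phgdh and Psat1, which fell most, held no match in these windows (for Psat1, in either of 2 promoters). ERSE was present in Hspa5 alone of the 10 (0.137% of all genes), at chr2:34772020-34772048, and the UPRE-like motif also in Hspa5 alone (2.22% of all genes), at chr2:34771922-34771950, both on the plus strand. They are shown because BiP is the textbook target of this arm.
Hspa5, ERSE: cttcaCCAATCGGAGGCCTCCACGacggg
Hspa5, UPRE-like: gggcgtagcaaTGACGTGagttgcggagg

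Of the 10160 m6A peaks, 8 had their summit in 5 of the 10 genes: 3 in Hspa5, 2 in Trib3 and 1 each in Chac1, Ddit3 and Xbp1. Atf4, Asns, Psat1, Phgdh and Slc7a11 had none. For Slc7a11 the mm9 model searched, chr3:50168858-50247535, is far shorter than its expression entry of 551089 bases. This 5 of 10 stands beside 40.1% of the 14118 tested genes that were found in the mm9 annotation, and beside 46.0% of those expressed at or above the lowest of the 10 genes. The depth behind the single peak list is unknown and it has no replicate error, so a gene with no peak is one with none in this list. Phgdh, Psat1 and Asns, whose log2 fold changes stayed at or below -0.75 in each alternative, had no peak. Of the 6 that fell, Chac1 and Hspa5 had one or more.

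Each peak carries a fold enrichment over the local background and a pileup of fragments at the summit, both as the authors' peak caller gave them, and positions are on mm9. Chac1 had the highest enrichment of the 8, 5.50, with its summit at chr2:119179318, 8 nt before the end of the stop codon. Trib3 had 1 peak at the end of its coding sequence (summit chr2:152164027, 84 nt before the end of the stop codon, enrichment 3.96) and a stronger one in the 3′UTR (chr2:152163463, 480 nt after it, 5.07). Hspa5 had a summit in the 5′UTR (chr2:34627712, enrichment 3.91), a weak one within the coding sequence (chr2:34629674, 1.62) and a broad one 123 nt before the end of the stop codon (chr2:34631510, 2.68). The last of these had a pileup of 186 fragments, above the list's median of 60.0, in a transcript that is itself abundant. Ddit3 (chr10:126733097, 50 nt before the end of the stop codon) and Xbp1 (chr11:5425138) had weak peaks, at 1.82 and 2.25. Of the 8 peaks, 2 exceeded the list's median enrichment of 4.03. In all, 6 summits lay in coding sequence, 1 in the 3′UTR and 1 in the 5′UTR, with Xbp1 placed on its model of 371 codons. On these models each of the 5 genes had a summit within 200 nt of the end of its stop codon. In the Xbp1 model of 267 codons the summit lay 231 nt after it. The share of all peaks that lie this near a stop codon was not counted. With peaks of at least 10 on the −log10 q-value scale, 6 peaks in 4 genes remained, and Ddit3 had none.

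**Figure D4:**
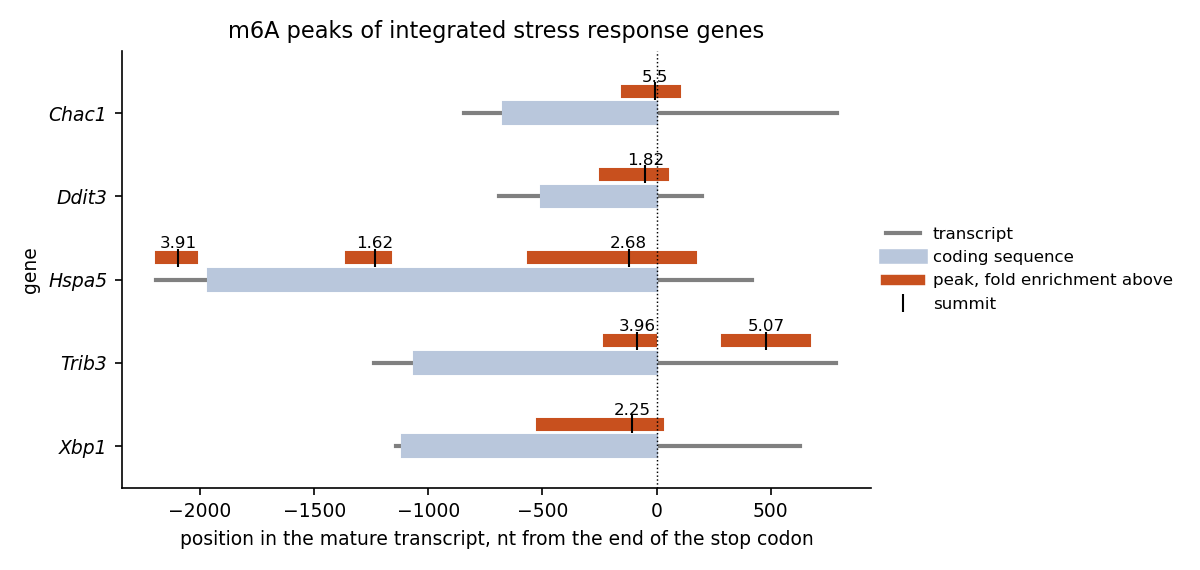
The 8 m6A peaks on the mature transcripts of 5 genes, in nt from the end of the stop codon (dotted line): grey lines are transcripts, pale boxes the coding sequence, orange bars the peaks with their fold enrichment above, and ticks the summits. On the models drawn, each gene has a peak whose summit lies within 200 nt of the stop codon, and Hspa5 also has one in its 5′UTR. Xbp1 is drawn on its model of 371 codons, and on that of 267 codons the summit lies 231 nt past the stop codon.

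m6A is written mostly where GGAC or a close relative occurs. The motif was present in 6 of the 8 peaks on the transcript strand, 13 times in all. It is a common word: the median over tested coding genes was 4.19 per kilobase of transcript. Whether these peaks hold more than that density gives was not tested. The Ddit3 peak and the middle Hspa5 peak, the ones with the least enrichment, held none. The GGAC nearest each summit is shown in capitals in a window of 30 bases, to give possible sites only. They lie at chr2:119179354-119179383 (plus strand) for Chac1, chr2:34627625-34627654 and chr2:34631488-34631517 (plus strand) for Hspa5, chr2:152163996-152164025 and chr2:152163501-152163530 (minus strand) for Trib3, and chr11:5425100-5425129 (plus strand) for Xbp1.
Chac1, after the stop codon: gagtggtactggtGGACatcagtatgcagt
Hspa5, 5′UTR: acaacactgacctGGACacttgggcttctg
Hspa5, end of coding sequence: gccaccaggatgcGGACattgaagacttta
Trib3, end of coding sequence: accgaagggagatGGACcaggtggtcccag
Trib3, 3′UTR: accatgtgcctcaGGACcacaaatcaggcc
Xbp1, end of coding sequence: cttcttgcctgctGGACgctcacagtgact

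The adenosine of the motif was 7 nt before the summit in the last Hspa5 peak and 72 nt before it in the first. In Chac1 it lay 51 nt after the summit, in the 3′UTR, although the summit itself was in the coding sequence. The other 3 lay within 52 nt of their summit, and all of these are motif matches, not mapped sites.

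The Xbp1 peak has a different place in the forms of the mRNA. In the annotated model with 6 exons and 371 codons, which lacks the 26 bases at chr11:5424285-5424310 (plus strand), the summit was in coding sequence, 107 nt before the end of the stop codon. In the model with 5 exons and 267 codons, which keeps those bases and so shifts the frame to an earlier stop, the same summit lay in the 3′UTR, 231 nt after the stop codon. The interval is shown because the length of 26 is that of the piece that IRE1 removes, and its capitals mark the whole interval.
Xbp1, interval absent from the longer coding model: CACTCAGACTATGTGCACCTCTGCAG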

How the data were processed

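The submitters' processing notes name HISAT2 2.0.4, TopHat and MACS2 and the builds mm10 and mm9. The study's methods give HISAT2 for RNA-seq. The authors deposited raw (unscaled) estimated counts for each gene, and values headed FPKM that have the same fixed sum in each library and are therefore TPM. The strand setting of counting is not given in the sources used here. For m6A, the authors deposited 1 list with each peak's pileup signal, fold enrichment (a ratio) and −log10 p-value and q-value. Peaks carry no replicate error.

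The members and lists were chosen with earlier results of these data known. Counts were rounded, and 89 entries without a name (0.110% to 0.125% of counts) were left out. Genes were filtered with filterByExpr, scaled by TMM and tested, two-sided, in edgeR 4.0.16 (R 4.3.3; quasi-likelihood, no block) with Benjamini-Hochberg adjustment over 15327 genes at 0.05. SEs come from the fold change and its F statistic. The method was checked on simulated counts in which all libraries shared 1 dispersion per gene. That check leaves out the unequal spread of the WT and cKO pairs, so it cannot vouch for the calls under it. An exact permutation test of 2 against 2 libraries cannot go below p = 0.333, so none was used. Alternatives were a replicate block, median-of-ratios factors, DESeq2 1.42.0, no filter, limma 3.58.1 on TPM, each library left out, and the cKO libraries summed. Same-numbered libraries did not deviate together (r = 0.0352 over 13302 genes), so numbers do not pair them.

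Named genes are the 10 members, Mettl3, entries that overlap a member and, of each list, up to 3 largest rises and falls past the test and the 2 genes with the highest mean. Summits were placed on GENCODE vM1 (mm9). Libraries held 23948200 to 34069223 counts, and precision is lower for genes with few reads, of the members Chac1 and Trib3.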

Additional observations from a re-analysis of the deposited data

How the results depend on the processing

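The number of the 10 genes called was 6. With no filter on low counts 8 were called, although the values hardly moved. The number was 4 to 8 under the alternatives that kept all 4 libraries apart. It was 3 with the cKO libraries summed and 3 to 9 with each library left out, the low end without either cKO library, the high end without WT replicate 2 and 8 without WT replicate 1. Where 1 cKO library was left it was assumed to vary as the WT libraries do, and where 1 WT library was left, as the far closer cKO pair does. Of the 108 pathway genes, 56 were called, and 37 and 36 in limma on log2(TPM + 0.1) and log2(TPM + 1), 28 with the cKO libraries summed and 27 to 94 with each library left out (27 and 28 without cKO replicates 1 and 2, 94 and 87 without WT replicates 1 and 2). Over all genes 4677 were called, 2012 with the cKO libraries summed and 1867 to 8750 with each library left out. With the replicate number as a block, 4881 of all genes, 7 of the 10 and 55 of the pathway genes were called. The block added Trib3, and since the numbers do not pair the libraries this is a change of model only.

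Of 110 values for the 10 genes under the alternatives, 88 kept direction and side of the threshold, 13 lost the call, 8 gained one and 1 turned, Ddit3, at -0.0292 without WT replicate 2 and at most 0.2077 (without WT replicate 1) with a library left out. Apart from Trib3 with the block, the gains came without a WT library or with no filter on low counts. Values that kept both include fits without a WT library, whose passes are no support, as stated above. Of 407 values for 37 other named genes, 342 kept both, 50 lost the call, 9 gained one and 6 turned: Eif2s3x at 0.11 and Cdkn1a at 0.0136 in both limma fits, and Mettl3 at 0.0013 without WT replicate 1 and 0.0226 without cKO replicate 2 (lowest -0.0782, without cKO replicate 1). None of the values that turned had passed the test. The causes were not tested. The count of genes with an m6A peak was 5, and 4 with the stricter q-value.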
